A study of Homo sapiens with 6 samples.

Results

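MTR4 is the nuclear RNA helicase encoded by MTREX. It was examined here together with the genes of the 8 proteins through which it is known to reach its RNA targets or be held back from them, in PLC/PRF/5 cells (PLC/PRF5 in the labels), a human hepatocellular carcinoma line. The 9 genes (MTREX, ZCCHC8, RBM7, ZFC3H1, PABPN1, ZCCHC7, TENT4A, TENT4B and NRDE2) were chosen by name, from what their products do, out of 60675 genes counted. All 9 were found in the count files by identifier and all 9 had enough reads to be tested. Total RNA was sequenced from 3 control and 3 MTR4 KD (knockdown) libraries, all from cells of the same line. The labels say only control and MTR4 KD. The study used both stable and doxycycline-inducible short hairpin RNA against MTR4, delivered by lentivirus with puromycin selection, and its account of the sequencing speaks of cells before and after induction, so the controls were probably uninduced cells. No library of doxycycline-treated cells with a non-targeting hairpin was analysed here. If the knockdown was induced, the effects of the drug and of the knockdown cannot be told apart in these libraries. For cells with an inducible scramble hairpin, the paper reports glycolytic gene expression unaffected by doxycycline and little effect of the drug on tumor growth. The labels do not say whether the 3 libraries of a group came from separate cultures, and the p-values then measure only the spread between these libraries. In bulk RNA, less RNA per cell and fewer cells that express a gene cannot be told apart.

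MTR4 unwinds RNA and feeds it to the nuclear RNA exosome, which degrades it from its 3′ end. Its adaptors decide which RNAs reach it. ZCCHC8 and the RNA-binding protein RBM7 form the NEXT complex with MTR4, which clears short unstable transcripts such as promoter upstream RNAs. The zinc-finger protein ZFC3H1 joins MTR4 to the nuclear poly(A)-binding protein PABPN1 in the PAXT connection, which handles longer polyadenylated nuclear RNAs. ZCCHC7 and the noncanonical poly(A) polymerases TENT4A and TENT4B (also known as PAPD7 and PAPD5) make up the human counterpart of the yeast TRAMP complex, which adds short tails to RNAs bound for decay. NRDE2 binds MTR4 and is known to keep it from the exosome.

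The study also asked what drives MTR4 expression, with c-Myc as its candidate, so the sequence before the start of MTREX is shown beside those of ZCCHC8 and NRDE2, the partner genes with the largest positive differences described below. Each is the 250 bases before the gene's start in the RefSeq table for GRCh38.p14, on the gene's own strand. The MTREX window lies at chr5:55307739-55307988 (+ strand), that of ZCCHC8 at chr12:122500933-122501182 (− strand) and that of NRDE2 at chr14:90331942-90332191 (− strand). Capitals mark CACGTG, the canonical E-box bound by c-Myc and related factors, or a variant of it (CACGCG or CACGAG or CATGCG or CATGTG), read on both strands.
MTREX: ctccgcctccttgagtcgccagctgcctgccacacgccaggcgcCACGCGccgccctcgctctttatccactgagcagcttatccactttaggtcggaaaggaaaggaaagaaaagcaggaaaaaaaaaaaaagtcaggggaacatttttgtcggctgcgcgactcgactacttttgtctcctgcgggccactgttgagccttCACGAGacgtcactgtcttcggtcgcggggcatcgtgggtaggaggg
ZCCHC8: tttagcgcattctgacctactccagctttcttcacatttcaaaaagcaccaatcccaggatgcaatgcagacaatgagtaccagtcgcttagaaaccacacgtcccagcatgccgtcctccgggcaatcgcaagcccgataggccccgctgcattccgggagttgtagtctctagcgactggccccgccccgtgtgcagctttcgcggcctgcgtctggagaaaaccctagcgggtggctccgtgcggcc
NRDE2: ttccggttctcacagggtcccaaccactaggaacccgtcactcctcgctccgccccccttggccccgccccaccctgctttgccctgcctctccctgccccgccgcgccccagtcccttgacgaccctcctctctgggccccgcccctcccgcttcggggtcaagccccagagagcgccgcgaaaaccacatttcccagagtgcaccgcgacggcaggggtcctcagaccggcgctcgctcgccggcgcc
The MTREX window held CACGCG at −206 and CACGAG at −47 from the start, and no CACGTG. The paper already names these same words near the MTR4 start as non-canonical E-boxes that c-Myc could bind. It reports c-Myc at the promoter by chromatin immunoprecipitation. It also reports lower MTR4 RNA and protein after knockdown of c-Myc. The windows of ZCCHC8 and NRDE2 held none of the 5 words. The table held 11 windows for 8 of the members, since some have several starts. CACGTG was present in none of the 11, against 6.34% of 35116 windows of the same length. At least 1 of the 5 words was held by 7 of the 11, against 31.3% of all windows. Counted by gene this was 6 of the 8. The windows of ZCCHC7 overlap and hold the same match, and the words of MTREX were known from the paper. The excess over all windows was not tested. The GC content was 56.8% for MTREX, 58.4% for ZCCHC8 and 71.6% for NRDE2. A match of letters alone is not a binding site, and binding was not measured in these libraries.

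The libraries held 60686786 to 72708682 reads on genes. They fell into 2 kinds by the share of reads that aligned to more than 1 place: 34.7 to 37.5% in controls 1 and 3 and MTR4 KD 3, and 14.8 to 18.2% in control 2 and MTR4 KD 1 and 2. The labels give no reason for this, so it is called the alignment class here, and results are given without and with it as a term in the model, as well as within each class. Libraries of a group differed by a chi-square of 4.85 to 8.21 for each degree of freedom within a class, and of 84.2 to 94.8 across classes. Markers of hepatocytes and liver carcinoma, ALB and AFP among them, were present in all libraries, with a summed level of 25812.8 to 27497.0 CPM (reads per gene scaled to a common library total) in the controls and 25729.2 to 27509.5 in MTR4 KD for the 10 genes. Within this list 2 genes rose and 1 fell on condition alone, and 3 rose and 2 fell with the class in the model. Of all genes tested, 1.48% rose and 2.12% fell on condition alone, and 9.43% rose and 10.8% fell with the class. The apolipoprotein gene APOA1 went from 501.2 to 546.4 CPM in the controls to 705.6 to 781.3 in MTR4 KD (log2 fold change 0.52, edgeR adjusted p = 0.00921), ALB rose by 0.29 (adjusted p = 0.0480) and the keratin gene KRT18 fell by 0.26 on the log2 scale (adjusted p = 0.0435). FGB (0.25, adjusted p = 0.00217) and KRT8 (−0.22, adjusted p = 0.00875) passed only with the class. The part of these differences in the results below was not tested. Both endothelial markers found were under 1 CPM. The 4 fibroblast and stellate markers summed to 7.69 to 9.86 CPM in the controls and 6.41 to 10.2 in MTR4 KD, with 1 of them under 1 CPM. Among them COL3A1, at 1.12 to 2.17 CPM in the controls and 0.85 to 1.08 in MTR4 KD, passed only with the class. Its log2 fold change there was −0.82 (edgeR adjusted p = 0.0398). The 4 blood markers summed to 2.00 to 4.74 and 2.19 to 19.9 CPM. The highest of these sums came from HBB, the beta-globin gene, which had 1086 reads in MTR4 KD 1, 5 and 2 reads in the other MTR4 KD libraries and 0 in the controls.

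MTREX, the targeted gene, fell in MTR4 KD to 58.8% of its control level. It is gene ENSG00000039123, with its 27 exons at positions 55307989 to 55425579 of chromosome 5 (+ strand, GRCh38). Its level was 72.2, 87.4 and 74.4 CPM in controls 1 to 3, and 44.6, 48.8 and 44.1 CPM in MTR4 KD 1 to 3. The highest knockdown library thus stayed well below the lowest control, and the groups did not overlap. The means were 78.0 ± 8.25 CPM in the controls and 45.8 ± 2.60 CPM in MTR4 KD (SD, n = 3 each). The 3 knockdown libraries were at 57.1, 62.6 and 56.6% of the control mean, so much of the transcript was still present in each. The log2 fold change was −0.77 (SE 0.0897, 95% interval −0.98 to −0.56, edgeR quasi-likelihood test, adjusted p = 0.00641 over 18075 genes). With the alignment class in the model it was −0.82 (SE 0.0542, 95% interval −0.94 to −0.70, adjusted p = 3.62e-07). Within the class of many non-unique reads, MTR4 KD 3 stood at 60.2% of the mean of controls 1 and 3. Within the class of few, the mean of MTR4 KD 1 and 2 stood at 53.4% of control 2, the highest control. Each of these values, like every within-class value below, has a single library on 1 side. Without MTR4 KD 1, the library with the HBB reads, the log2 fold change was −0.74 (adjusted p = 0.0486). Of all genes tested, 715 had a lower log2 fold change than MTREX. The gene PLPP1 on the opposite strand covers 12.1% of the exon bases of the main MTREX transcript. Whether the counting used strand is not given in the sources used here, so reads there cannot be assigned to either gene for certain.

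The 8 partner genes showed no such loss. None of the 8 passed the test on condition alone, where 3.60% of all genes did (1.48% higher and 2.12% lower in MTR4 KD). At an unadjusted p under 0.05 there were 2, ZCCHC8 and NRDE2, both with the higher mean in MTR4 KD. The share of all genes at that unadjusted cutoff was not counted, so no excess is read from it. The DESeq2 Wald test called ZCCHC8 (adjusted p = 0.0398). With the alignment class in the model 3 of the 8 rose, ZCCHC8, NRDE2 and PABPN1, and none fell. In that model 20.2% of all genes passed, 9.43% higher and 10.8% lower. The median log2 fold change of the 8 was 0.10 on condition alone and 0.14 with the class, beside 0.01 for all genes in either fit. The 95% interval lay wholly above that of MTREX for 7 of the 8 partners on condition alone, PABPN1 being the exception. With the class this held for all 8. The share of all genes that meet this was not counted. Of 18075 genes tested, 715 had a lower log2 fold change than MTREX on condition alone. The count is therefore not read as a result about the partners.

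**Figure D1:**
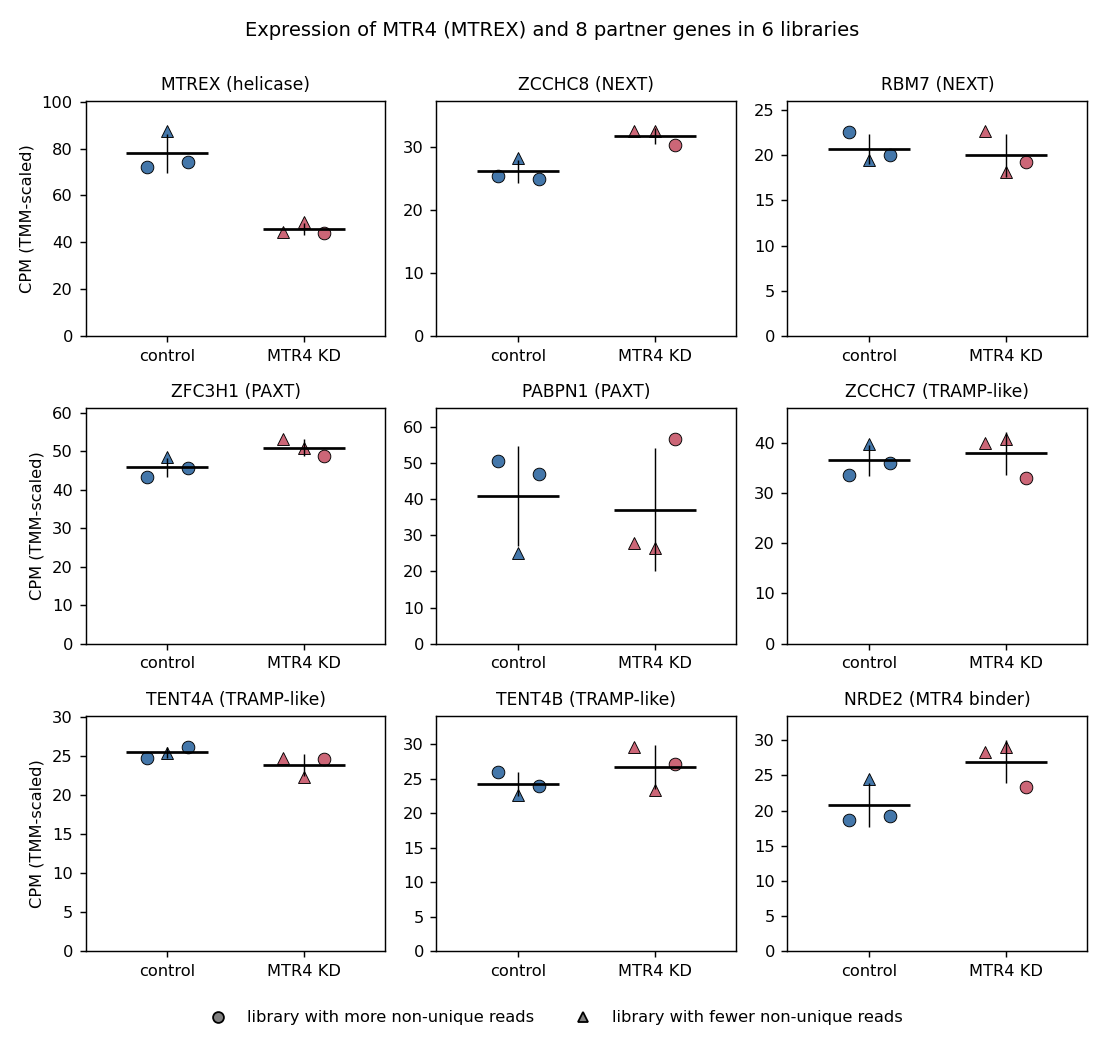
Expression of the 9 genes in CPM (scaled by TMM factors, linear axis from 0) in the 3 control and 3 MTR4 KD libraries; each point is 1 library, circles and triangles mark the classes of many and of few non-unique reads, and the horizontal and vertical lines are the mean and SD of each group. MTREX lies at 72.2 to 87.4 CPM in the controls and 44.1 to 48.8 in MTR4 KD, while PABPN1 splits by symbol rather than by group.

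Of the NEXT genes, ZCCHC8 stood slightly higher in MTR4 KD and RBM7 showed no detectable difference. ZCCHC8 (ENSG00000033030, chromosome 12, 122471600 to 122500932, − strand) encodes the scaffold of the complex. Its level was 25.4, 28.3 and 24.9 CPM in the controls and 32.5, 32.6 and 30.3 CPM in MTR4 KD. Every knockdown library was above every control, and the means were 26.2 ± 1.81 and 31.8 ± 1.28 CPM (SD, n = 3 each). This was a log2 fold change of 0.28 (SE 0.0770, 95% interval 0.10 to 0.46), which did not pass the test on condition alone (edgeR, adjusted p = 0.110) and did with the class in the model (0.24, SE 0.0543, adjusted p = 0.00804). It was 0.27 in the class of many non-unique reads and 0.20 in the class of few. The call with the class was lost without MTR4 KD 3 (0.22, adjusted p = 0.0734), the sole knockdown library of its class.

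RBM7 (ENSG00000076053, chromosome 11, 114400666 to 114410607, + strand) supplies the RNA recognition motif of NEXT. Its level was 22.6, 19.4 and 20.0 CPM in the controls and 22.6, 18.1 and 19.2 CPM in MTR4 KD, so the groups covered nearly the same range. Its log2 fold change was −0.05 (SE 0.108, 95% interval −0.30 to 0.20, edgeR adjusted p = 0.853) and −0.04 with the class (95% interval −0.24 to 0.16, adjusted p = 0.810). Its sign turned without control 1 (0.02) or MTR4 KD 2 (0.01). An unnamed gene on the same strand covers 11.9% of the exon bases of its main transcript, and the annotation names 1 pseudogene after it, so its level carries some uncertainty.

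Of the PAXT genes, ZFC3H1 did not pass the test in either fit and PABPN1 varied mainly with the alignment class. ZFC3H1 (ENSG00000133858, chromosome 12, 71609599 to 71663848, − strand), the adaptor that contacts MTR4, stood at 43.2, 48.4 and 45.7 CPM in the controls and 53.2, 50.7 and 48.8 CPM in MTR4 KD. The groups did not overlap, but the lowest knockdown library was close to the highest control. Its log2 fold change was 0.15 (SE 0.0678, 95% interval −0.01 to 0.31, edgeR adjusted p = 0.281), and 0.12 with the class (95% interval 0.01 to 0.23, adjusted p = 0.113).

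PABPN1 (ENSG00000100836, chromosome 14, 23321457 to 23326163, + strand), which coats nuclear poly(A) tails, was at 50.5, 25.0 and 46.8 CPM in the controls and 27.9, 26.5 and 56.6 CPM in MTR4 KD. The high values were those of controls 1 and 3 and MTR4 KD 3, the libraries with more non-unique reads. These 3 libraries averaged 51.3 ± 4.96 CPM and the other 3 averaged 26.5 ± 1.43 CPM (SD), with no overlap between the classes. The difference between classes was 1.01 on the log2 scale (SE 0.0561), larger than that between the groups in either fit. Other members also differed between classes, but were lower where non-unique reads were many. The class difference was −0.33 for NRDE2 (edgeR adjusted p = 0.000744), −0.24 for ZCCHC7 (adjusted p = 0.00431) and −0.17 for MTREX (adjusted p = 0.0271). It did not pass for the remaining members. The share of all genes that differ between classes was not counted. On condition alone the log2 fold change was −0.14 (SE 0.358, 95% interval −0.98 to 0.70, edgeR adjusted p = 0.875). With the class in the model it was 0.17 (SE 0.0558, 95% interval 0.05 to 0.29, adjusted p = 0.0469), and it came to 0.22 in the class of many non-unique reads and 0.12 in that of few. That call was lost when any 1 library was left out, at adjusted p values of 0.0535 to 0.331. The readthrough gene BCL2L2-PABPN1 covers 79.9% of the exon bases of the main PABPN1 transcript on the same strand, and 2 pseudogenes are named after PABPN1, so reads could be split or set aside between them. The readthrough gene itself had 9 to 21 reads per library, and adding them left the log2 fold change at −0.14. The part of the alignment class in these levels was not tested beyond that fit.

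No difference was detected for the TRAMP-like genes. ZCCHC7 (ENSG00000147905, chromosome 9, 37120167 to 37358149, + strand), the zinc-knuckle subunit, stood at 33.5, 39.8 and 36.0 CPM in the controls and 39.9, 40.7 and 33.0 CPM in MTR4 KD. The groups overlapped over most of their range. The log2 fold change was 0.06 (SE 0.104, 95% interval −0.19 to 0.30, edgeR adjusted p = 0.825), and it turned to −0.03 with the class (95% interval −0.15 to 0.09, adjusted p = 0.783).

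TENT4A (ENSG00000112941, chromosome 5, 6713432 to 6757044, + strand) was at 24.8, 25.4 and 26.2 CPM in the controls and 24.7, 22.3 and 24.6 CPM in MTR4 KD. All 3 knockdown libraries were below the controls, though MTR4 KD 1 and control 1 were nearly level. Its log2 fold change was −0.09 (95% interval −0.27 to 0.08, edgeR adjusted p = 0.554), and −0.08 with the class (adjusted p = 0.410). Without MTR4 KD 2 it was −0.05. TENT4B (ENSG00000121274, chromosome 16, 50152911 to 50235310, + strand), its paralog and the polymerase usually assigned to this complex, was at 26.0, 22.7 and 23.9 CPM in the controls and 29.6, 23.3 and 27.1 CPM in MTR4 KD. The groups overlapped, with the lowest value in control 2 and the highest in MTR4 KD 1. On condition alone it differed by a log2 fold change of 0.14 (95% interval −0.11 to 0.39, edgeR adjusted p = 0.535), and 0.17 with the class (95% interval −0.01 to 0.36, adjusted p = 0.189). It was 0.06 without MTR4 KD 1, 0.09 without control 2 and 0.23 without MTR4 KD 2.

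NRDE2 (ENSG00000119720, chromosome 14, 90267860 to 90331941, − strand), the MTR4 binder that holds it back from the exosome, had the largest positive difference of the 9 genes. Its level was 18.6, 24.4 and 19.3 CPM in the controls and 28.4, 29.1 and 23.4 CPM in MTR4 KD. The groups overlapped, because MTR4 KD 3 was below control 2, but those libraries belong to different alignment classes and within each class the knockdown libraries were the higher ones. The means were 20.8 ± 3.18 and 27.0 ± 3.10 CPM (SD, n = 3 each). On condition alone this gave a log2 fold change of 0.37 (SE 0.133, 95% interval 0.06 to 0.69, edgeR adjusted p = 0.192). With the class in the model it was 0.27 (SE 0.0582, 95% interval 0.14 to 0.39, adjusted p = 0.00593), and it came to 0.30 in the class of many non-unique reads and 0.23 in that of few. Without MTR4 KD 3 the fit with the class gave 0.24 (adjusted p = 0.0531). PSMC1 and an unnamed gene on the opposite strand cover 34.6% of the exon bases of the main NRDE2 transcript, so without a known strand setting part of its reads cannot be told from theirs.

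Across the 9 genes the ranges of the 2 groups did not overlap for 4, with ZCCHC8 and ZFC3H1 higher and MTREX and TENT4A lower in MTR4 KD. Over all genes tested this held for 24.7%, with 12.1% higher and 12.6% lower.

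**Figure D2:**
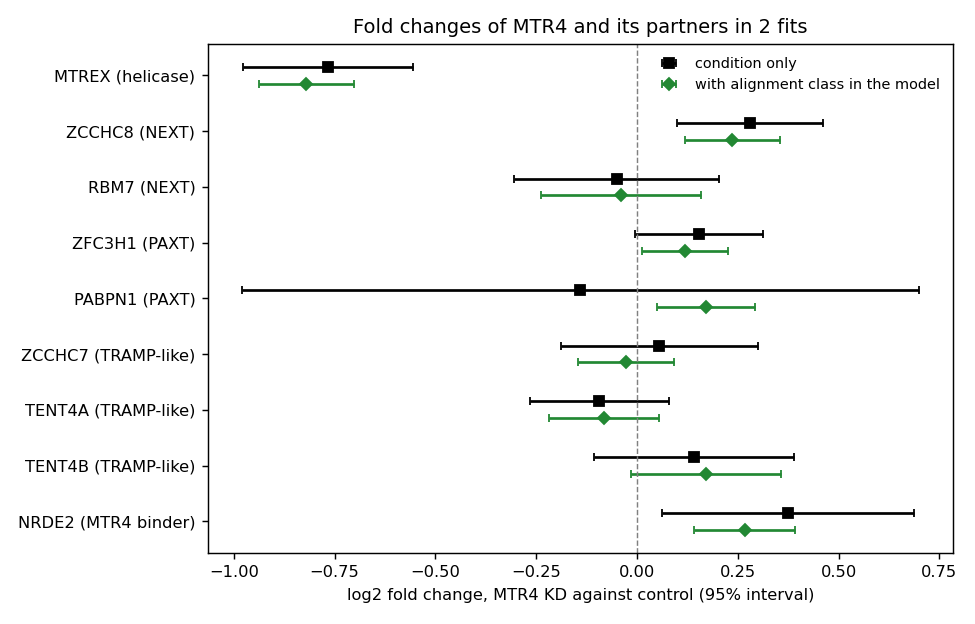
Log2 fold change of MTR4 KD against control for the 9 genes with 95% intervals, from the fit on condition alone (squares) and with the alignment class in the model (diamonds). MTREX stands alone on the left at −0.77 and −0.82, and the interval of PABPN1 narrows from −0.98 to 0.70 without the class to 0.05 to 0.29 with it.

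In MTR4 KD, MTREX held a lower place among its partners. Levels of different genes were compared per length, as CPM divided by the length of the main annotated transcript in kilobases. In the controls PABPN1 had 22.5 ± 7.61 CPM per kilobase and MTREX 19.7 ± 2.08, and these did not differ beyond their spread. ZCCHC7 followed at 14.1 ± 1.22. Then came ZFC3H1 at 6.50 ± 0.367, ZCCHC8 at 6.37 ± 0.440 and RBM7 at 5.73 ± 0.466, neighbours whose ranges overlapped. TENT4A had 5.07 ± 0.141, TENT4B 2.87 ± 0.202 and NRDE2 1.48 ± 0.227 CPM per kilobase (SD, n = 3). The place of NRDE2 depends on its annotated length of 14.0 kilobases. Before division by length its control mean was 20.8 CPM, beside 20.7 CPM for RBM7, whose main transcript has 3.61 kilobases. In MTR4 KD the level of MTREX was 11.6 ± 0.657 CPM per kilobase and that of ZCCHC7 14.7 ± 1.65. MTREX was above ZCCHC7 in all 3 controls (18.2 to 22.1 against 13.0 to 15.4) and below it in all 3 knockdown libraries (11.1 to 12.3 against 12.8 to 15.8). These 2 genes kept their order when all annotated exon bases of a gene were used as its length, with 11.4 to 13.8 against 8.48 to 10.1 CPM per kilobase in the controls and 6.95 to 7.70 against 8.34 to 10.3 in MTR4 KD. By that length other genes changed places: in the controls MTREX ranked above PABPN1 (12.3 ± 1.30 and 11.1 ± 3.74 CPM per kilobase) and TENT4A (4.01 ± 0.111) above ZCCHC8 (2.92 ± 0.202) and RBM7 (2.62 ± 0.213). By the main transcript, MTREX remained above ZFC3H1, ZCCHC8, RBM7, TENT4A, TENT4B and NRDE2 in the knockdown, where ZCCHC8 had 7.73 ± 0.310 and ZFC3H1 7.23 ± 0.311.

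**Figure D3:**
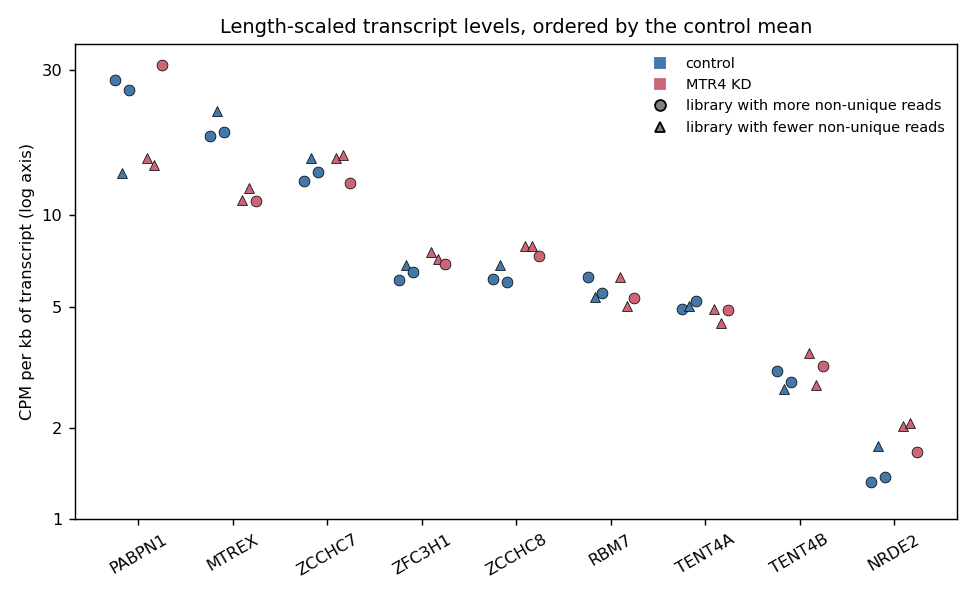
Levels of the 9 genes per kilobase of their main transcript (CPM per kilobase, log axis), ordered by the control mean; each point is 1 library, coloured by group and shaped by alignment class. MTREX drops from 18.2 to 22.1 in the controls to 11.1 to 12.3 in MTR4 KD, crossing ZCCHC7. NRDE2, the gene with the longest main transcript, is the lowest per kilobase in both groups.

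The balance between each partner and MTREX was read as the ratio of their length-scaled levels within a library, which does not depend on how libraries are scaled to each other. The ratio of ZCCHC8 to MTREX was 0.339, 0.311 and 0.323 in the controls and 0.703, 0.642 and 0.662 in MTR4 KD. That of NRDE2 to MTREX went from 0.0752 ± 0.00338 to 0.166 ± 0.0151 (SD, n = 3 each), and that of ZFC3H1 from 0.331 ± 0.0178 to 0.626 ± 0.0437. In these cases every knockdown library was far above every control. On the log2 scale the difference in the ratio was 1.14 for NRDE2, 1.05 for ZCCHC8, 0.92 for ZFC3H1, 0.90 for TENT4B, 0.82 for ZCCHC7, 0.71 for RBM7 and 0.67 for TENT4A. The ratio of TENT4B went from 0.147 ± 0.0240 to 0.275 ± 0.0455, that of ZCCHC7 from 0.717 ± 0.0227 to 1.27 ± 0.114, that of RBM7 from 0.294 ± 0.0497 to 0.481 ± 0.0754 and that of TENT4A from 0.259 ± 0.0266 to 0.412 ± 0.0453. For these 7 the groups did not overlap, and the two-sided exact permutation p was 0.1, the smallest that 3 against 3 libraries allow (0.114 after Benjamini-Hochberg adjustment over the 8 ratios). The ratio of PABPN1 overlapped between groups (1.18 ± 0.484 and 1.79 ± 0.888, exact p = 0.6), with a log2 difference of 0.60. That difference was 0.19 without control 2 and 0.22 without MTR4 KD 3, at most 0.84 without any other library, and 0.95 and 1.02 within the classes of many and few non-unique reads. All 8 ratios share the MTREX level, whose own log2 fold change was −0.77 and whose groups did not overlap. A gene that did not change would also tend to give a higher ratio in MTR4 KD. The share of all genes whose ratio separates the groups was not counted. The count of 7 and its p-values are therefore not read as a result about the partners.

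The other genes of the pathway were taken as 6 lists with 37 genes, all of which were tested. None of the 37 passed on condition alone (edgeR, with 1 at an unadjusted p under 0.05), and their log2 fold changes lay between −0.24 and 0.22. Only 3.60% of all genes passed in that fit, so the lack of calls is not read as a result about these lists. The share of all genes at an unadjusted p under 0.05 was not counted. With the alignment class in the model 5 fell and none rose, beside 9.43% higher and 10.8% lower among all genes. The 95% interval lay wholly above that of MTREX for 35 of the 37 on condition alone and for all 37 with the class. The share of all genes that meet this was not counted, so it is not read as a result about these lists. The ranges of the groups did not overlap for 5 of the 37, against 24.7% of all genes. They were RBM26, higher in MTR4 KD, and EXOSC2, EXOSC5, EXOSC9 and PAPOLA, lower, named here after their values were seen.

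The RNA exosome list holds 13 genes for the barrel and cap of the complex, its nucleases and its nuclear cofactors. Of these EXOSC2 and EXOSC8 fell with the class in the model and none rose, with a median log2 fold change of −0.06 on condition alone and −0.12 with the class. EXOSC2, a cap subunit, was at 40.5 ± 1.20 CPM in the controls and 36.2 ± 1.69 in MTR4 KD (SD, n = 3 each), a log2 fold change of −0.19 with the class (edgeR adjusted p = 0.0152). EXOSC8, a subunit of the barrel, was at 12.9 ± 1.88 and 11.4 ± 0.706 CPM, with −0.26 (adjusted p = 0.0263). Both are small beside the change of MTREX. Of the 6 genes that link the cap-binding complex to NEXT and PAXT, PHAX, the adaptor for export of small nuclear RNA, fell with the class in the model (−0.16, adjusted p = 0.0298), although its means of 50.8 ± 6.71 and 49.2 ± 6.49 CPM lay within the spread of the libraries. None of the 5 genes known with PAXT or with termination of unstable RNA, and neither NVL nor NOP53, which dock on MTR4 in ribosomal RNA processing, passed in either fit.

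The cytoplasmic Ski complex works beside the cytoplasmic exosome through a helicase related to MTR4. Of its 4 listed genes SKIC8, a WD-repeat subunit, fell with the class in the model (52.3 ± 3.70 to 48.1 ± 3.10 CPM, log2 fold change −0.18, edgeR adjusted p = 0.0195). Of 7 other poly(A) and uridyl polymerases PAPOLA, the canonical nuclear poly(A) polymerase, fell in the same fit (244.6 ± 6.16 to 226.2 ± 0.941 CPM, −0.12, adjusted p = 0.0484). The other 6 did not pass.

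**Figure D4:**
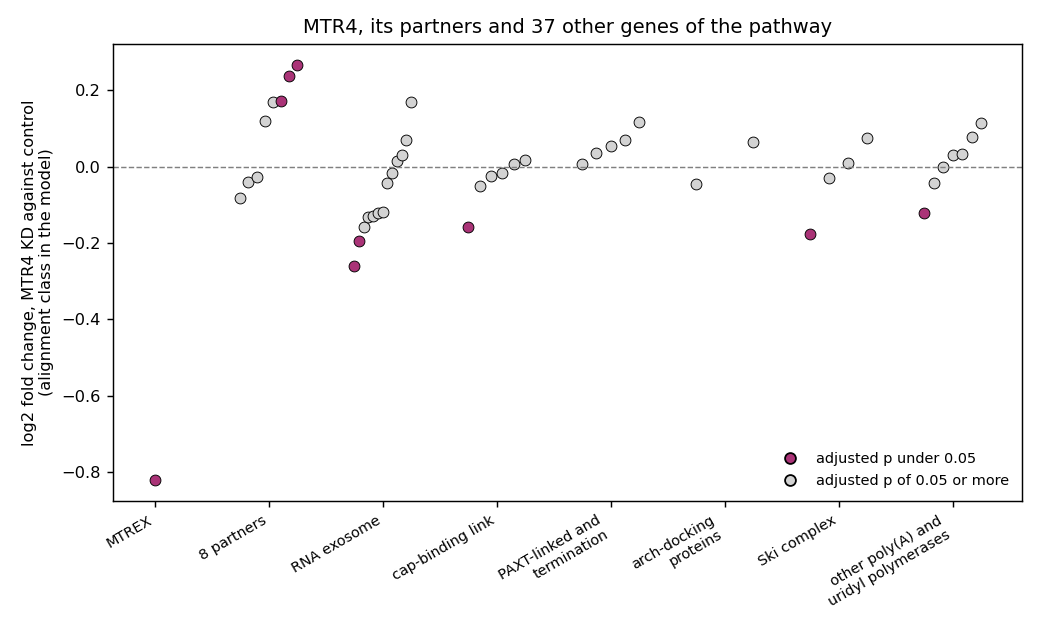
Log2 fold change of MTR4 KD against control, with the alignment class in the model, for MTREX, its 8 partners and the 37 other pathway genes by list; each point is 1 gene and filled purple points have an adjusted p under 0.05. MTREX lies at −0.82, the 3 called partners at 0.17 to 0.27 and the 5 called pathway genes at −0.26 to −0.12.

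DHX29, a helicase of translation initiation, lies head to head with MTREX, their starts 295 bases apart. This neighbour was picked with earlier results of these data known. Its level was 66.0, 78.5 and 67.9 CPM in the controls and 87.0, 84.9 and 73.2 CPM in MTR4 KD, so it did not go down with MTREX. Its log2 fold change was 0.21 (SE 0.0964, edgeR adjusted p = 0.307), and 0.13 with the class (SE 0.0416, adjusted p = 0.0431).

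Likeness to MTREX was measured as Pearson's r of log2 CPM over the 6 libraries, among 11660 protein-coding genes with a mean of at least 100 reads. The points share 2 groups and the libraries' alignment classes, so r is a description only. The closest were FHDC1, LITAF and HPS3 (0.995 each) and NFIL3 and DTL (0.994 each). The most opposed were CAT (−0.997), BMP2 (−0.995), BSDC1 (−0.994), and PDK2 and AP1M2 (−0.993 each). None of the partners was near either end. The r with MTREX was −0.79 for ZCCHC8, −0.67 for ZFC3H1, −0.65 for TENT4B and −0.60 for NRDE2, close to 0 for PABPN1 (−0.03), ZCCHC7 (−0.03) and RBM7 (0.06), and 0.56 for TENT4A.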

How the data were processed

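Total RNA of 3 control and 3 MTR4 KD libraries of PLC/PRF/5 cells was sequenced. The authors deposited raw counts of reads per gene, 1 file per library. The submitters' processing notes name HISAT2 2.1.0, HTSeq, DESeq2 and GRCh38. The counter's settings for strand and overlapping genes are not given in the sources used here. The 5 rows that name no gene stayed out of library sizes and tests. Of all reads they held 14.8 to 37.5% as non-unique, 5.89 to 8.29% as ambiguous between genes, 2.51 to 3.1% as outside genes and 1.62 to 5.73% as of low alignment quality, beside those not aligned. Libraries above 30% non-unique formed 1 alignment class. Gene names, lengths and overlaps came from GENCODE v44 lifted to GRCh37, coordinates and start windows from RefSeq on GRCh38.

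Counts were tested in R 4.3.3 with the quasi-likelihood test of edgeR 4.0.16 (TMM factors, filterByExpr with a minimum of 10 counts, condition as the sole term) over 18075 genes, with Benjamini-Hochberg adjustment and a threshold of 0.05. The alternatives were other scalings and filters, DESeq2 1.42.0, limma 3.58.1, a replicate block, the alignment class as a term, and leaving out each library, in turn also with the class, which was added after the data were seen. Ratios were tested with an exact permutation test, also in R 4.3.3. The replicates of a group were not duplicates by chi-square.

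The members and lists were chosen with earlier results of these data known. Named genes are the 9 members, up to 3 called genes per direction and list, and the 5 genes most and least like MTREX.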

Additional observations from a re-analysis of the deposited data

How the results depend on the processing

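The log2 fold change of MTREX kept its direction and its call under all 15 alternatives, at −0.82 to −0.68, and −0.82 to −0.68 when 1 library was left out. The members called were 1 on condition alone, 2 by the DESeq2 Wald test and 4 with the alignment class in the model. Pathway genes called went from 0 to 5 with the class. Over all genes tested the count of 650 became 1363 by the DESeq2 Wald test and 3649 with the class. It ranged from 137 to 803 when 1 library was left out, with 164 without control 1, 183 without control 3, 163 without MTR4 KD 1 and 137 without MTR4 KD 2; the cause was not tested. With the class in the model, leaving out 1 library gave 1 to 3 called members, the 1 without MTR4 KD 3. The signs of RBM7, ZCCHC7 and PABPN1 turned: ZCCHC7 to −0.0271 and PABPN1 to 0.17 with the class, and over the fits that leave out 1 library they ranged from −0.15 to 0.0167 for RBM7, −0.0038 to 0.15 for ZCCHC7 and −0.59 to 0.0486 for PABPN1. With the class the ranges were −0.15 to 0.0763 for RBM7 and −0.0765 to 0.0304 for ZCCHC7. The cause was not tested. The other 5 partners kept their direction under all 15 alternatives, with TENT4A at −0.12 to −0.05 and TENT4B at 0.06 to 0.23, and no scaling moved the median gene by more than 0.01.

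Whether replicate numbers pair the libraries could not be told, because the correlations followed the alignment class. The deviations of same-numbered libraries from their group means correlated at −0.35, 0.43 and 0.46, and control 1 correlated best with MTR4 KD 3. Pairs of a control and a knockdown library of the same class correlated at 0.43 to 0.47, and pairs of different classes at −0.59 to −0.33. With a replicate block MTREX was at −0.76 (edgeR adjusted p = 0.00171), with 1 member and 857 genes called.

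Each member had at least 1150 reads in every library.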
